A study of Mus musculus with 10 samples.

Results

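The unfolded protein response is the set of signals by which a cell adjusts the endoplasmic reticulum (ER) to its load of unfolded protein. Of its genes 10 were followed here in the mouse adrenal gland: the membrane sensors and sensor-like factors Ern1, Atf6 and Creb3l2, the transcription factors Xbp1, Atf4 and Ddit3, and the chaperone, co-chaperone and degradation genes Hspa5, Hsp90b1, Dnajb9 and Herpud1. They were taken by name, and each was read from the probe that is annotated to it alone. All 10 of 10 were measured, each by 1 such probe, among 19661 genes with a probe of their own.

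Whole adrenal RNA came from 5 mice labelled CREMKO (Crem-/-, here KO) and 5 labelled WT, with 1 Affymetrix array per mouse. Crem encodes CREM, a transcription factor that binds cAMP response elements. All were 129Pas x C57Bl/J mice of 8 weeks, received no treatment and were killed at 0 h of circadian time, when the lights come on. The sources used here do not give their sex. The labels give 4 batches, with KO 1, KO 2 and WT 1 in batch 1, KO 3 and KO 4 in batch 2, KO 5, WT 2, WT 3 and WT 4 in batch 3 and WT 5 in batch 4. Levels are log2 values after RMA, an array normalization, and differences are KO minus WT on the log2 scale, so that a difference of 1 is a doubling of signal.

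In the resting cell the ER chaperone BiP, encoded by Hspa5, keeps the sensors quiet, and unfolded protein draws it away. IRE1 (Ern1) then cuts the Xbp1 transcript so that an active XBP1 protein is made, PERK (Eif2ak3) slows translation while favouring that of ATF4, and ATF6 travels to the Golgi, is cut and enters the nucleus. ATF6 and XBP1 switch on chaperones and the machinery of ER-associated degradation through ER stress response elements, and ATF4 drives Ddit3, which encodes CHOP, a factor tied to cell death. Steroid-producing cells of the adrenal cortex are rich in smooth ER, and the chromaffin cells of the medulla secrete peptides and amines. The arrays measure transcript levels, and neither the cutting of Xbp1 nor that of ATF6 was read here.

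The promoters of these genes differ in the response elements they hold. An ER stress response element (ERSE) consists of CCAAT and CCACG with 9 bases between them, and the related ERSE-II of ATTGG and CCACG with 1 base between them. RefSeq promoter windows (GRCm38.p6, 250 bases before to 50 after the annotated start) were held for 9 of the 10 genes, Atf6 being the exception. Both strands were searched for exact matches, so an element with a changed letter was not counted. The bases before the start are printed for the 4 chaperone and degradation genes, 3 of which hold an ERSE or ERSE-II, and for Creb3l2, which had the largest difference between KO and WT of the 10 genes in the fit without batch. Capitals mark the paired boxes of an ERSE or ERSE-II, the letters ACGTG found in XBP1 and ATF6 sites, and TGACG, the first 5 letters of a cAMP response element (CRE).

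Hspa5 (chr2:34771840-34772089, plus strand): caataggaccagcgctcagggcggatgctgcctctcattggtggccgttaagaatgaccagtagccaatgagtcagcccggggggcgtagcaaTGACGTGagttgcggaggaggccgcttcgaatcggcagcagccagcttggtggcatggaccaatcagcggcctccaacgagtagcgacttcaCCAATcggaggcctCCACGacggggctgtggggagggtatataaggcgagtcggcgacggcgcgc
Hsp90b1 (chr10:86705445-86705694, minus strand): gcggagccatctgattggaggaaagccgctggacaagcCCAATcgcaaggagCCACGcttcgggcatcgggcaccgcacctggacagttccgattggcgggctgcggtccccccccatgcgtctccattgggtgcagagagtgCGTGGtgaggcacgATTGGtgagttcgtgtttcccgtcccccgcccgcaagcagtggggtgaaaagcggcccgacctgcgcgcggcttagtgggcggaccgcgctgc
Dnajb9 (chr12:44210069-44210318, minus strand): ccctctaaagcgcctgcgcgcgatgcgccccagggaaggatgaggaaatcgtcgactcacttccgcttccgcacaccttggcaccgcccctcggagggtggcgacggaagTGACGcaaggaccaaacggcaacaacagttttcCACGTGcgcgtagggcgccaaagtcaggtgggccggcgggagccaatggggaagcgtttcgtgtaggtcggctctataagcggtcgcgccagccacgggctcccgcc
Herpud1 (chr8:94386179-94386428, plus strand): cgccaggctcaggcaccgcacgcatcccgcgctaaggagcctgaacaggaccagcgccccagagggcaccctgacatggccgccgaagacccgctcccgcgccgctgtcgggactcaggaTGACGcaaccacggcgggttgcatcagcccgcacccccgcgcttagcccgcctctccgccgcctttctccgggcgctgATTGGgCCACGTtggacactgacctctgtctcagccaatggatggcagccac
Creb3l2 (chr6:37442149-37442398, minus strand): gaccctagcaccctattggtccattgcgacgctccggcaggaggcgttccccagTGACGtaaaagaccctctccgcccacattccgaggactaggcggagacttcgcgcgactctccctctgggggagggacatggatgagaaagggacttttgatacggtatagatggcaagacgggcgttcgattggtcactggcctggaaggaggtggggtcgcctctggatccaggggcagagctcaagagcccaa

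Hsp90b1 held 2 ERSE matches, 1 on each strand, and Hspa5 held 1, from -65 to -47 relative to the start. A match was present in 0.119% of 32851 promoter windows of this length. The ERSE-II of Herpud1 lay from -52 to -42, and 0.0365% of windows held one. This second element was added to the search after the windows had been seen. ACGTG was found in Hspa5, Dnajb9, Herpud1 and Ddit3 and in 19.6% of windows. In Dnajb9 it was read on both strands of the same 6 bases, CACGTG, and in Herpud1 it overlaps the ERSE-II. A full CRE, TGACGTCA, was found in 0 of the 9 windows and in 1.79% of all windows. Its first 5 letters, TGACG, were found in Creb3l2, Atf4, Hspa5, Dnajb9 and Herpud1, and in 20.8% of all windows. The boxes CCAAT and CCACG alone are common, being present in 37.4% and 32.8% of windows. Xbp1, Ern1, Creb3l2 and Atf4 held neither an ERSE nor ACGTG in these windows.

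**Figure D1:**
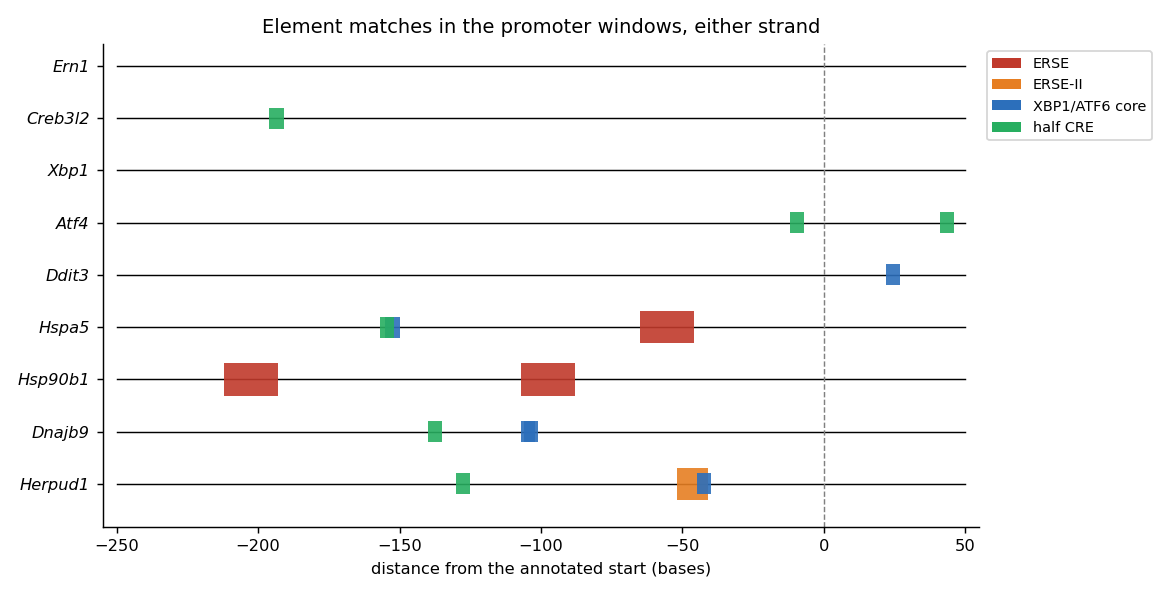
Matches of the ERSE, the ERSE-II, the 5-letter core of XBP1 and ATF6 sites and the 5-letter CRE part in the promoter windows of 9 genes, by distance from the annotated start in bases (x axis, 0 is the start). Hsp90b1 holds 2 ERSE matches, Hspa5 holds 1, Herpud1 holds the ERSE-II, and the windows of Ern1 and Xbp1 hold none of the 4.

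Arrays of the same genotype stood apart from each other. The first principal component of all 25664 probes held 53.8% of the variance. KO 2 (69.4), KO 5 (61.0), WT 3 (60.7) and WT 4 (17.4) scored above 0 on it, and the other 6 arrays scored between -54.0 and -23.7. KO 1 and KO 3 carried much signal from adipocyte markers, with means over 9 measured genes of 12.70 and 12.46, where the remaining 8 arrays had 8.31 to 10.84. On KO 1 the mean of 9 liver markers was 13.14 and that of 9 medulla markers 8.11, against at most 9.29 and at least 11.13 on the others. The widest markers were Ucp1 (6.18 to 12.64), Cidea and Lep for fat, Fgg, Alb and Fgb for liver and Pnmt, Scg2 and Dbh for the medulla. The mean of 10 cortex markers, led in range by Cyp11b2, Mc2r and Nr5a1, was lowest on the same pair, at 12.42 (KO 1) and 12.33 (KO 3), where the remaining arrays had 12.80 to 13.01, so the arrays carry the transcripts of adrenal cortex. Markers of other secretory cells moved less, the mean of 8 pancreas acinar genes (Cela1, Cpb1 and Cela3b having the widest ranges) lying between 6.96 and 7.45 and that of 9 plasma cell and B cell genes (Cd79a, Irf4 and Sdc1) between 6.13 and 6.59. Kidney markers (Slc34a1, Lrp2 and Napsa) had means of 6.17 to 6.48. Crem itself was 7.38, 7.97, 6.86, 6.84 and 7.77 on KO 1 to KO 5 and 7.45, 7.23, 8.14, 7.62 and 7.27 on WT 1 to WT 5. These overlap, and as no source used here says which part of Crem its probe reads, Crem does not check the labels.

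Between KO and WT, Ern1 and Creb3l2 had the largest differences of the 10 in the fit without batch, both lower in KO, and 0 of the 10 passed the test. limma called 0% of the 25664 probes at an adjusted p under 0.05, the smallest being 1.00. Before adjustment, at p under 0.05, 2 of the 10 genes were lower and 0 higher in KO, where 2.88% of all genes were lower and 0.732% higher. The mean was lower in KO for 9 of 10, against 53.2% of all genes. Groups that did not overlap were found for 0 of 10 and for 0.717% of all genes. The count of lower means was 5 with batch as a block (59.9% of all genes), 6 without KO 1 and KO 3 (58.6%) and 10 without KO 2, KO 5, WT 3 and WT 4 (49.4%), a set chosen after seeing the data.

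**Figure D2:**
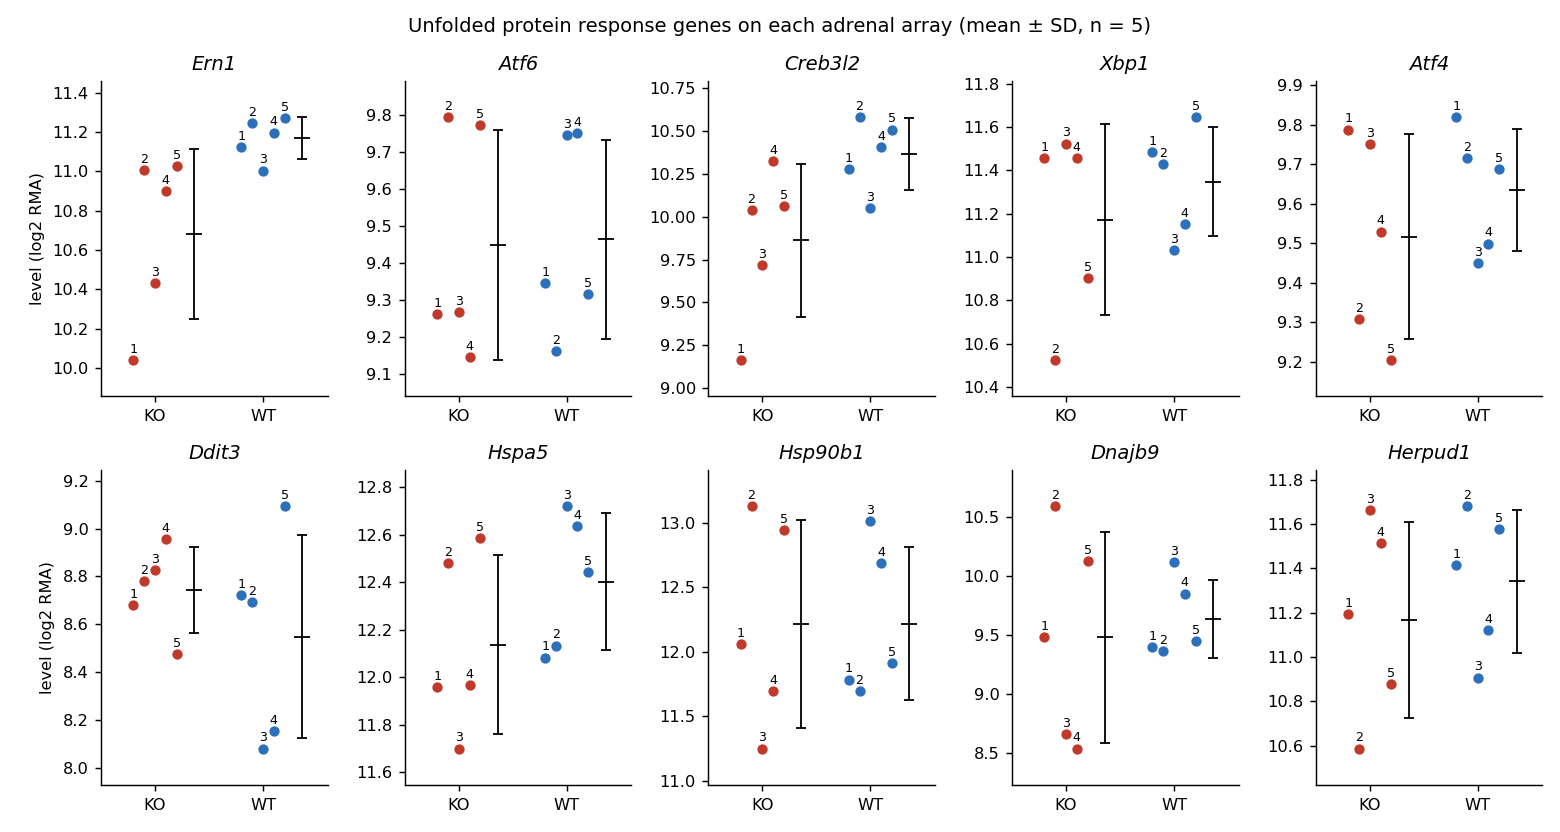
Level (log2 RMA) of each gene on each array, with the replicate number above the point and the mean ± SD (n = 5) at the right of each group, on a separate axis range per gene. Ern1 and Creb3l2 are lowest on KO 1 and KO 3, while Hsp90b1, Dnajb9, Hspa5 and Atf6 are highest on KO 2, KO 5, WT 3 and WT 4 in both genotypes.

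Ern1, which encodes the kinase and endoribonuclease IRE1 alpha, was 10.04, 11.01, 10.43, 10.90 and 11.03 on KO 1 to KO 5 and 11.12, 11.24, 11.00, 11.20 and 11.27 on WT 1 to WT 5. The WT arrays lay close together, KO 1, KO 3 and KO 4 lay below all of them, and KO 2 and KO 5 lay just above WT 3. KO averaged 10.68 ± 0.43 and WT 11.17 ± 0.11 (SD, n = 5 each), a difference of -0.49 (standard error 0.19, 95% interval -0.90 to -0.07, two-sided exact permutation p = 0.0238, limma adjusted p = 1.00). Without KO 1 and KO 3 it was -0.19, and without KO 1 alone it was -0.33. A block for batch gave -0.35, batch 1 alone -0.60 and batch 3 alone -0.12. The 2 arrays with the lowest Ern1 are the 2 with the highest adipocyte and the lowest cortex marker means. KO 4, the next lowest in Ern1, had an adipocyte mean of 8.31 and a cortex mean of 12.89. The part of tissue make-up in this difference was not tested. In whole-gland RNA, fewer cells of a type and less RNA per cell cannot be told apart.

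Creb3l2 encodes a transcription factor held in the ER membrane and released by cutting, like ATF6, and it belongs to the CREB family. Its levels were 9.16, 10.04, 9.72, 10.32 and 10.06 on KO 1 to KO 5 and 10.28, 10.58, 10.05, 10.41 and 10.51 on WT 1 to WT 5. KO 1 and KO 3 were again the 2 lowest arrays, KO 4 lay within the WT range, and KO 2 and KO 5 lay just below and just above WT 3. KO averaged 9.86 ± 0.44 and WT 10.37 ± 0.21 (SD, n = 5 each), a difference of -0.50 (standard error 0.20, 95% interval -0.96 to -0.05, two-sided exact permutation p = 0.0476, limma adjusted p = 1.00). A block for batch gave -0.47, batch 1 alone -0.68 and batch 3 alone -0.28. Without KO 1 and KO 3 it was -0.22, and without KO 1 alone it was -0.33. Without KO 2, KO 5, WT 3 and WT 4 it was -0.72, and that of Ern1 was -0.75.

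Atf6, the sensor that becomes a transcription factor after it is cut, did not follow these 2 genes. It was 9.26, 9.79, 9.27, 9.15 and 9.77 on KO 1 to KO 5 and 9.35, 9.16, 9.75, 9.75 and 9.32 on WT 1 to WT 5. In both genotypes the arrays fell into a high set and a low set with 0.40 between them, and each set held KO and WT arrays. The difference was -0.016 (95% interval -0.40 to 0.37, limma adjusted p = 1.00).

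Among the transcription factors, Xbp1 was 11.46, 10.53, 11.52, 11.46 and 10.90 on KO 1 to KO 5 and 11.49, 11.43, 11.03, 11.15 and 11.64 on WT 1 to WT 5. KO 2, KO 5, WT 3 and WT 4 were its 4 lowest arrays, and these are the 4 highest arrays of Atf6. Its difference was -0.17 (95% interval -0.64 to 0.29, limma adjusted p = 1.00), -0.39 with batch as a block, -0.040 without those 4 arrays and -0.013 without KO 2 alone.

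Atf4, whose protein is made when translation is slowed, was 9.79, 9.31, 9.75, 9.53 and 9.20 on KO 1 to KO 5 and 9.82, 9.72, 9.45, 9.50 and 9.69 on WT 1 to WT 5. The same 4 arrays were its lowest, by a margin of 0.030. Its difference was -0.12 (95% interval -0.42 to 0.18, limma adjusted p = 1.00), -0.31 with batch as a block and -0.040 without KO 5.

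Ddit3 (CHOP), the factor tied to cell death, was 8.68, 8.78, 8.82, 8.96 and 8.48 on KO 1 to KO 5 and 8.72, 8.69, 8.08, 8.15 and 9.09 on WT 1 to WT 5. WT 3, WT 4 and KO 5 were low, but KO 2 was not. It was the single gene of the 10 with a higher mean in KO, at 0.20 (95% interval -0.23 to 0.62, limma adjusted p = 1.00), and that difference was 0.093 with batch as a block, 0.078 without WT 3 and -0.015 without KO 2, KO 5, WT 3 and WT 4.

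Of the 10 genes, Dnajb9 and Hsp90b1 varied most from array to array, their ranges being wider than those of 92.6% and 90.7% of all genes. Hsp90b1 encodes GRP94, the HSP90 of the ER, and was 12.06, 13.13, 11.25, 11.70 and 12.94 on KO 1 to KO 5 and 11.78, 11.69, 13.01, 12.68 and 11.91 on WT 1 to WT 5. KO 2, KO 5, WT 3 and WT 4 stood 0.63 above the next array, and the whole range of 1.88 is 3.68-fold. The KO and WT means were 12.21 ± 0.80 and 12.22 ± 0.59 (SD, n = 5 each), with a difference of -0.0029 (95% interval -0.88 to 0.88, limma adjusted p = 1.00). The difference was 0.63 with batch as a block, a fit that draws on batches 1 and 3 alone, since batches 2 and 4 hold 1 genotype each.

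Dnajb9 encodes ERdj4, a co-chaperone of BiP, and had the widest range of the 10, at 2.06 or 4.16-fold. It was 9.48, 10.59, 8.66, 8.54 and 10.13 on KO 1 to KO 5 and 9.40, 9.36, 10.12, 9.85 and 9.45 on WT 1 to WT 5. KO 2, KO 5, WT 3 and WT 4 were the highest, as for Hsp90b1, and KO 3 and KO 4, the pair that forms batch 2, were the lowest. The difference was -0.16 (95% interval -1.002 to 0.69, limma adjusted p = 1.00), 0.49 with batch as a block and -0.51 without the 4 highest arrays.

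Hspa5 (BiP) was 11.96, 12.48, 11.70, 11.97 and 12.58 on KO 1 to KO 5 and 12.08, 12.13, 12.72, 12.64 and 12.44 on WT 1 to WT 5. The same 4 arrays were its highest, though WT 5 came within 0.039 of them. Its difference was -0.26 (95% interval -0.70 to 0.17, limma adjusted p = 1.00), and 0.11 with batch as a block.

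Herpud1, which encodes an ER membrane protein that gathers the degradation machinery, ran the other way. It was 11.20, 10.59, 11.66, 11.51 and 10.88 on KO 1 to KO 5 and 11.42, 11.68, 10.91, 11.12 and 11.58 on WT 1 to WT 5. KO 2, KO 5, WT 3 and WT 4 were its lowest arrays. The difference was -0.17 (95% interval -0.67 to 0.33, limma adjusted p = 1.00), -0.44 with batch as a block, -0.028 without KO 2 and -0.30 without KO 3.

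**Figure D3:**
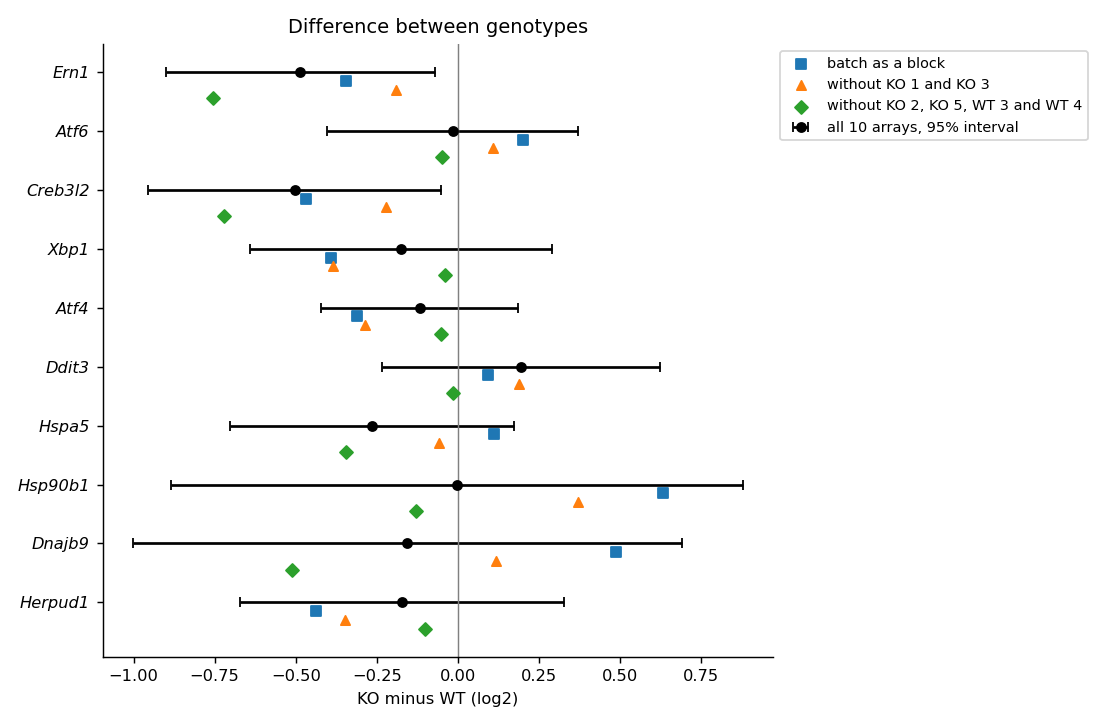
KO minus WT difference (log2, x axis) of each gene over all 10 arrays with its 95% limma interval, and the value with batch as a block and without 2 sets of arrays. The intervals of Ern1 and Creb3l2 alone lie below 0, before adjustment, and Hsp90b1 moves from -0.0029 to 0.63 with batch as a block.

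In 7 of the 10 genes the same 4 arrays, a pair of each genotype, lay at one end of the range. Hsp90b1, Dnajb9, Hspa5 and Atf6 had KO 2, KO 5, WT 3 and WT 4 as their 4 highest arrays, and Xbp1, Herpud1 and Atf4 had them as their 4 lowest. These arrays were picked from Hsp90b1 itself, so that 3 of the 9 other genes had them highest and 3 lowest. Over all genes 12.3% had these 4 arrays highest and 13.1% had them lowest. They are also the 4 arrays above 0 on the first principal component, and the part of that component in the pattern was not tested. Hsp90b1 and Hspa5, which hold an ERSE in the windows printed above, had these arrays highest, and Herpud1, which holds an ERSE-II, had them lowest. Dnajb9, which had them highest too, holds neither element in its window. A link between the elements and the pattern was not tested.

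Among the 6 arrays that remain, 0 of 45 pairs of the genes passed a two-sided exact permutation test of Pearson's r after Benjamini-Hochberg adjustment, and 1 pair had an unadjusted p under 0.05. That pair was Ern1 and Creb3l2 (r = 0.98, exact permutation p = 0.00556, adjusted p = 0.25; Spearman's rho = 0.89, exact permutation p = 0.0333, adjusted p = 0.656). By Spearman's rho 0 pairs passed and 2 had an unadjusted p under 0.05, the other being Ern1 and Hspa5 (rho = 0.94, exact permutation p = 0.0167, adjusted p = 0.656). Without KO 1 and KO 3, the arrays farthest from the median of Ern1, r was 0.74 over 4 arrays, and batches are too small for values of their own. The smallest p that Spearman's rho allows over 6 arrays is 0.00278, so by rho a single pair could not pass after adjustment over 45. Pearson's r allows a smaller p. The 6 arrays hold both genotypes (KO 1, KO 3, KO 4, WT 1, WT 2 and WT 5), and genotype was not taken out. On them Ern1 was 10.04, 10.43 and 10.90 in KO and 11.12, 11.24 and 11.27 in WT. Its correlations therefore also hold this difference between the genotypes. No r is given over all 10 arrays, because these fall into separate sets.

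**Figure D4:**
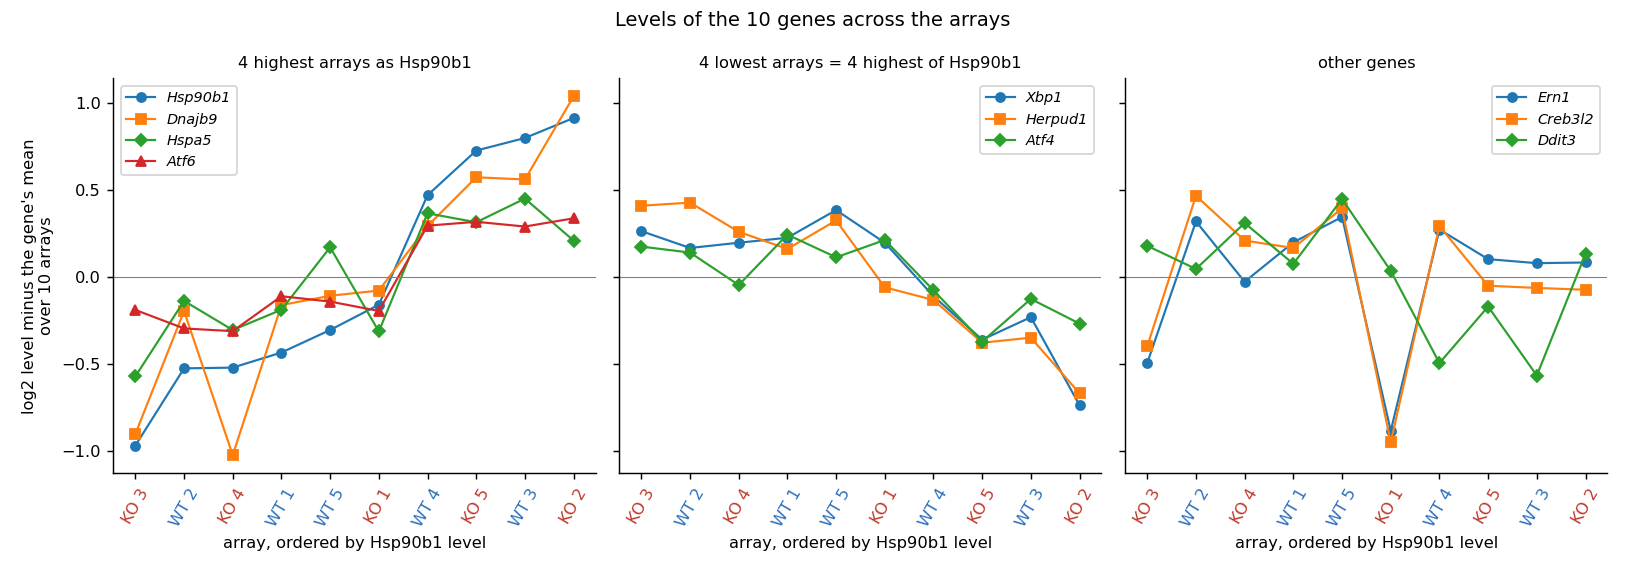
Level of each gene minus its mean over the 10 arrays (log2, y axis), with arrays ordered by Hsp90b1 level and KO names in red and WT names in blue. Hsp90b1, Dnajb9, Hspa5 and Atf6 are highest on the 4 arrays at the right, Xbp1, Herpud1 and Atf4 are lowest there, and Ern1 and Creb3l2 dip together on KO 1 and KO 3.

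The wider pathway was read from 5 lists with 83 different measured genes, of which 0 passed the adjusted threshold. Groups did not overlap for 1 of 12 genes of the IRE1 list and 1 of 22 of the PERK and ATF4 arm. The same held for 1 of 20 ER chaperones and foldases, 1 of 19 ER-associated degradation genes and 0 of 10 of the ATF6 list. The share over all genes was 0.717%. ER chaperones and foldases were lower in KO in 20 of 20 measured genes, with differences from -0.42 to -0.07 and a median of -0.17, where 53.2% of all genes were lower and their median was -0.01. The count was 15 with batch as a block, against 59.9% of all genes, and 16 without KO 1 and KO 3, against 58.6%. Without KO 2, KO 5, WT 3 and WT 4 it was 20, against 49.4%. Some cell type marker lists also had all their measured genes differing in the same direction. Cortex markers were lower in KO in 10 of 10 genes (median -0.14) and medulla markers in 9 of 9 (-0.82), and adipocyte (0.41) and liver markers (1.32) were higher in 9 of 9 each. Without KO 1 and KO 3 these medians were 0.02, -0.13, -0.90 and -0.39, and that of the chaperones was -0.16. The part of tissue make-up in the lists was not tested. Of the 20 ER chaperones and foldases 1 had an unadjusted p under 0.05, where 2.88% of all genes were lower at that p. That gene was Uggt1, which encodes the enzyme that marks misfolded glycoproteins for another round of folding. Uggt1 was 9.93, 10.10, 9.91, 10.11 and 10.15 on KO 1 to KO 5 and 10.22, 10.45, 10.19, 10.33 and 10.47 on WT 1 to WT 5. Its groups did not overlap, though KO 5 and WT 3 lay close, and the difference was -0.29 (standard error 0.10, limma adjusted p = 1.00). The differences were -0.42 for the oxidase Ero1b, -0.32 for Txndc5, -0.29 for the disulfide isomerase Pdia3 and -0.17 for the prolyl isomerase Fkbp2. Those of Ero1b and Pdia3 turned, with batch as a block, to 0.09 and 0.05, and those of Txndc5, Fkbp2 and Uggt1 were -0.56, -0.29 and -0.19.

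The PERK and ATF4 arm had 13 of 22 measured genes lower in KO, against 53.2% of all genes, with a median of -0.06. At an unadjusted p under 0.05 there were 4, all lower, where 2.88% of all genes were lower at that p. With batch as a block 19 were lower, against 59.9% of all genes (list median -0.31). Without KO 1 and KO 3 it was 21, against 58.6% (-0.24). Without KO 2, KO 5, WT 3 and WT 4 it was 10, against 49.4% (0.07). Eif2ak3, which encodes PERK, the sensor not among the 10 genes, was 8.80, 9.02, 8.62, 8.78 and 9.03 on KO 1 to KO 5 and 9.10, 9.36, 9.23, 9.29 and 9.18 on WT 1 to WT 5. Its groups did not overlap either, and its difference was -0.38 (standard error 0.10, exact permutation p = 0.00794, the smallest that 252 choices of arrays can give, limma adjusted p = 1.00). A block for batch gave -0.23. Slc7a5, an amino acid transporter gene driven by ATF4, was 9.67, 10.23, 10.42, 10.90 and 9.997 on KO 1 to KO 5 and 11.12, 11.62, 10.64, 11.21 and 11.01 on WT 1 to WT 5. WT 3 lay below KO 4, and the difference of -0.88 (standard error 0.24) was -1.17 with batch as a block. Psat1, of serine synthesis, had a difference of -0.75, Ddit4, a stress-induced inhibitor of mTOR, of -0.66 and Slc3a2, the partner chain of Slc7a5, of -0.24. With batch as a block these were -0.99, -0.94 and -0.44. Of the 22 genes 7 had KO 2, KO 5, WT 3 and WT 4 as their 4 lowest arrays, as Atf4 does, and 0 had them as their highest. Over all genes 13.1% had them lowest and 12.3% highest. Among the 20 ER chaperones and foldases 4 had them lowest and 4 highest.

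The IRE1 list had 11 of 12 measured genes lower in KO, against 53.2% of all genes, with a median of -0.17. With batch as a block 8 were lower, against 59.9% of all genes (list median -0.12). Without KO 1 and KO 3 it was 10, against 58.6% (-0.15). Without KO 2, KO 5, WT 3 and WT 4 it was 9, against 49.4% (-0.23). In this list 1 gene had an unadjusted p under 0.05, where 2.88% of all genes were lower at that p. That was Traf2, the adaptor that IRE1 recruits, with a difference of -0.42 (-0.39 with batch as a block). Its groups did not overlap, WT 3 (9.43) and WT 4 (9.43) lying just above KO 4 (9.42). The differences were -0.29 for Sec24d (ER export), -0.23 for the stress kinase gene Map3k5, -0.39 for Ssr1 (the translocon) and -0.02 for Tmbim6, an inhibitor of cell death. That of Ssr1, with batch as a block, turned to 0.10, and those of Map3k5, Sec24d and Tmbim6 were -0.02, -0.14 and -0.18. In the ATF6 list 6 of 10 were lower, against 53.2% of all genes, with a median of -0.11. Of these 1, Nfya, had an unadjusted p under 0.05, where 2.88% of all genes were lower at that p. A block for batch left 7 lower, against 59.9% of all genes (list median -0.24). Without KO 1 and KO 3 it was also 7, against 58.6% (-0.21). Without KO 2, KO 5, WT 3 and WT 4 there were 5, against 49.4% (0.01). Nfya, a subunit of the factor that binds CCAAT, had a difference of -0.44 (standard error 0.14), or -0.18 with batch as a block. Nfyc, another subunit, had one of 0.25 (0.29). The protease gene Mbtps1, whose product cuts ATF6, had a difference of -0.23 (-0.41 with batch as a block) and Creb3 of -0.22 (-0.36). Of ER-associated degradation, 14 of 19 were lower, against 53.2% of all genes, with a median of -0.07. Of these 1, Faf2, had an unadjusted p under 0.05, where 2.88% of all genes were lower at that p. The count was 12 with batch as a block, against 59.9% of all genes (list median -0.04). Without KO 1 and KO 3 it was 14, against 58.6% (-0.05). Without KO 2, KO 5, WT 3 and WT 4 it was 15, against 49.4% (-0.15). Faf2 had a difference of -0.28 with no overlap between groups, Selenos of -0.32, Ube2j2 of -0.24, Os9 of -0.23 and Sel1l of -0.22. Those of Faf2, Selenos, Ube2j2, Os9 and Sel1l, with batch as a block, were -0.18, -0.27, -0.39, -0.39 and -0.01.

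**Figure D5:**
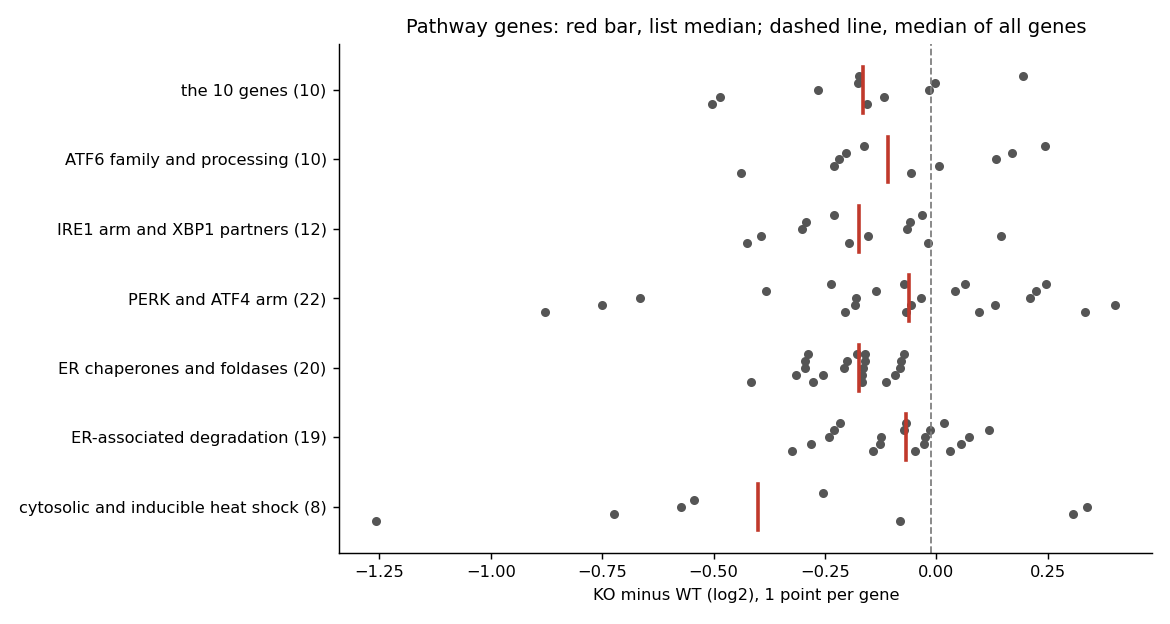
KO minus WT difference (log2, x axis) of every measured gene of each list, 1 point per gene and staggered for legibility, with the list median as a red bar and the median of all genes as a dashed line. All 20 ER chaperone and foldase genes lie below 0, and the PERK and ATF4 arm spreads from -0.88 to 0.40.

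Outside the ER, cytosolic and inducible heat shock genes were also read. Of 8 measured genes 6 were lower in KO, 3 of them at an unadjusted p under 0.05, and 0 passed the adjusted threshold, where 53.2% of all genes were lower and 2.88% lower at that p. With batch as a block 5 were lower, against 59.9% of all genes (list median -0.29). Without KO 1 and KO 3 it was 6, against 58.6% (-0.57). Without KO 2, KO 5, WT 3 and WT 4 it was 5, against 49.4% (-0.49). The median over all arrays was -0.40, against -0.16 for the 10 unfolded protein response genes. Hspa1a, an inducible HSP70 whose near-identical copy Hspa1b may share its signal, had a difference of -1.26 (-1.06 with batch as a block). Dnajb1, an HSP40, had one of -0.72 with no overlap between groups, and Bag3 had one of -0.57. With batch as a block those of Dnajb1 and Bag3 were -0.87 and -0.86. Hsph1 had a difference of -0.54 (0.07 with batch as a block), whereas Hspa8, the constitutive HSP70, had one of 0.31 (0.17 with batch as a block). The contrast between the ER and the cytosolic genes was not tested.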

How the data were processed

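Per the labels, total RNA of whole adrenal glands was amplified, labelled with biotin and hybridized to Affymetrix arrays. The deposited values are log2 levels per probe that the authors had processed with RMA, which subtracts background, normalizes by quantiles and summarizes probes, and which narrows differences of dim probes. The sources used here name neither its software and version nor a step for batches. Of 35557 rows, 25689 held values on all 10 arrays (2.75 to 14.64), and 25 control rows were left out. Of the remaining 25664 probes 20777 had 1 gene symbol, 232 had several and 4655 had none. A gene was read from its brightest probe with 1 symbol. The number of arrays limits the precision.

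For KO against WT, limma 3.58.1 (R 4.3.3) was fitted over all probes (lmFit, eBayes, genotype alone, Benjamini-Hochberg adjustment), and single genes were also given two-sided exact permutation tests over 252 choices of arrays. Arrays numbered by animal were taken as separate mice. Replicate numbers follow the order of the records and pair nothing. Batch entered as fixed terms or, alternatively, as random (consensus correlation 0.172), and genotypes were compared within batches 1 and 3, which hold both genotypes. The other alternatives were 2 further normalizations, 2 probe filters, trend and robust moderation, array weights and leaving out arrays. The exclusion of KO 2, KO 5, WT 3 and WT 4 together was chosen after seeing the data. The limma fit on genotype alone was checked on simulated data, with noise drawn independently for each array and without batches. The permutation tests, the correlations and the fits with batch were not part of that check.

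The 10 genes, the lists and the tests were chosen with earlier results of these data known. The text names the 10 genes, Crem, up to 4 genes per pathway list by smallest unadjusted p and the brightest of each list, and 3 genes per marker list by widest range. Lists missed the genes without a single-symbol probe. Promoters were searched with Python 3.11.15, and figures were drawn with matplotlib 3.10.9.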

Additional observations from a re-analysis of the deposited data

Results flagged for a closer look

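In 3 of the named genes 1 array stood far from the other 4 of its group, by a gap that chance gives in about 1 of 20 groups of this size. Fkbp2 was 12.35 on KO 4, where the nearest KO array was 12.06. Txndc5 was 10.65 on WT 3, where the nearest WT array was 11.07. Bag3 was 9.67 on WT 3, where the nearest WT array was 10.30. In 80 groups of 5 tested, 3 were marked in this way, and among the 10 unfolded protein response genes 0 were.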

How the results depend on the processing

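The number of probes past the adjusted threshold was 0 under each alternative run, and 0 genes of the 6 pathway lists passed under the 4 alternatives run for them. The probes at an unadjusted p under 0.05 numbered 641 lower and 237 higher in KO, 1381 and 462 with batch as a block, 650 and 236 with it as a random block, 134 and 90 within batch 1, 182 and 82 within batch 3, 766 and 158 at a common median, 549 and 156 after a repeated quantile normalization, 377 and 25 among the brighter probes, 571 and 138 among those with 1 symbol, 448 and 309 with trend and robust moderation, 1200 and 466 with array weights, 485 and 208 without KO 1 and KO 3, 1873 and 1253 without KO 2, KO 5 and WT 3, and 1631 and 893 without WT 4 as well. Without single arrays the lower probes numbered between 348 (WT 5) and 1156 (KO 4) and the higher between 155 (WT 5) and 449 (WT 3). None of the 10 genes passed under an alternative run (lowest adjusted p = 0.35). Ern1 and Creb3l2 kept their sign under each alternative, with differences between -0.57 and -0.33 for Ern1 and between -0.62 and -0.33 for Creb3l2 when single arrays were left out. Of 263 alternative values of the gene differences, 39 had the opposite sign. With batch as a block the difference was 0.20 for Atf6, 0.11 for Hspa5, 0.63 for Hsp90b1, 0.49 for Dnajb9 and 0.16 for Crem. With batch as a random block it was 0.041 for Atf6 and 0.15 for Hsp90b1. Within batch 1 it was 0.18 for Atf6, 0.14 for Hspa5, 0.81 for Hsp90b1, 0.64 for Dnajb9 and 0.22 for Crem. Within batch 3 it was 0.22, 0.088, 0.48, 0.35 and 0.105 for the same genes. Atf6 was 0.031 after a repeated quantile normalization. With array weights Atf6 was 0.034 and Hsp90b1 0.13. Without KO 1 and KO 3, Atf6 was 0.11, Hsp90b1 0.37 and Dnajb9 0.12. Without KO 2, KO 5 and WT 3, Xbp1 was 0.052, Atf4 0.0086 and Herpud1 0.0079. Without KO 2, KO 5, WT 3 and WT 4, Ddit3 was -0.015. Leaving out single arrays gave -0.10 to 0.060 for Atf6, -0.23 to 0.24 for Hsp90b1 and -0.43 to 0.080 for Dnajb9. The cause of these changes was not tested. Each of the 10 genes has 1 probe of its own, so averaging probes changed nothing. The planned correlations over all 10 arrays were not run because the arrays fall into separate sets.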
